A study of Mus musculus with 20 samples.

Results

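The 10 genes described here encode a selection of the calcium/calmodulin-dependent kinases (CaMKs) of the mouse brain. They are the 4 subunits of CaMKII (Camk2a, Camk2b, Camk2d and Camk2g), the upstream kinases Camkk1 and Camkk2, and kinases these switch on (Camk4, Camk1, Camk1d and Camk1g). They were chosen by gene symbol, as 10 of the 24528 genes of a table of transcript abundance, and all 10 passed the filter on low values in both regions. The table holds total RNA sequencing of the neocortex and hippocampus of mice aged 18 months, with ribosomal RNA depleted before sequencing. TDP-43KQ/KQ mice carry, on both alleles of endogenous Tardbp, a lysine-to-glutamine substitution that mimics acetylation of the RNA-binding domain of TDP-43. TDP-43wt mice have the unaltered gene. The substitution was introduced by CRISPR-Cas9 in C57BL/6J zygotes and is in the germ line, so that it is present in all cells and not in neurons alone. No treatment was given to either genotype. From the neocortex there were 3 females and 2 males of TDP-43wt and 3 females and 3 males of TDP-43KQ/KQ. From the hippocampus there were 3 females and 1 male of TDP-43wt and 3 females and 2 males of TDP-43KQ/KQ.

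CaMKs carry a rise in neuronal calcium to protein phosphorylation. Calcium enters through NMDA receptors and voltage-gated channels and binds calmodulin, and calcium-loaded calmodulin opens the autoinhibited catalytic domain of the kinase. CaMKII is an oligomer mostly of alpha (Camk2a) and beta (Camk2b) subunits in forebrain neurons. It is among the most abundant proteins of the postsynaptic density, it phosphorylates itself and stays active after calcium has fallen, and it is needed for long-term potentiation in the hippocampus. The beta subunit also binds filamentous actin and anchors the holoenzyme in spines. The delta and gamma subunits (Camk2d, Camk2g) occur in many tissues. CaMKK1 and CaMKK2 phosphorylate CaMKI and CaMKIV, and CaMKK2 also activates AMPK. CaMKIV (Camk4) is mainly nuclear and phosphorylates CREB, while CaMKI isoforms (Camk1, Camk1d, Camk1g) act in growth of neurites.

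Values in the table are log2-like and every gene is set to a mean of 0 over the neocortex TDP-43KQ/KQ libraries. A value therefore says how far a library is from that group on a log2 scale, and the abundance of one kinase cannot be ranked against that of another. Tardbp, the edited gene, was at -1.07 to -0.90 in the neocortex TDP-43wt libraries and at -0.10 to 0.13 in the TDP-43KQ/KQ libraries, and in the hippocampus at -1.03 to -0.62 and at -0.16 to 0.16. Tardbp was thus higher in all 11 TDP-43KQ/KQ libraries than in any of the 9 TDP-43wt libraries. The mean of 7 dentate granule cell markers told the regions apart, at 1.17 to 1.87 in the hippocampus libraries and at -0.17 to 0.37 in the neocortex libraries. Single markers were not uniform: 1 of 7 was lower in the hippocampus in TDP-43wt and 2 of 7 in TDP-43KQ/KQ mice. Other lists were uneven within a region. Choroid plexus markers had a mean of -0.10 to 3.54 in the hippocampus libraries, and striatal projection neuron markers one of -0.225 to 0.504 in the neocortex libraries. Litter and sex had been removed from the values over both regions together. The removal left 3 libraries of mice that are alone in their litter with little information of their own. For each of the 24528 genes the value of neocortex TDP-43wt male 1 equals the mean of the 4 other libraries of its group within 1e-06, and the deviation of TDP-43KQ/KQ female 2 in the hippocampus is the mirror image of that in the neocortex. In the hippocampus alone TDP-43wt female 3 is also the only library of its litter. TDP-43KQ/KQ female 3 is there the only female of litter 5, to which all males belong, so the sex term takes it up. Leaving out TDP-43wt female 3, TDP-43KQ/KQ female 2 or TDP-43KQ/KQ female 3 left the residual degrees of freedom of that fit at 3. Its genotype estimates thus rest on the females of litter 6 and the males of litter 5.

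TDP-43 binds RNA at repeats of UG, so the longest run of alternating T and G was looked up in the longest coding transcript of each kinase (GENCODE vM21, GRCm38/mm10). The 2 stretches below are shown because they are those of the kinase called in the model of both regions, Camk2b, and of the kinase with the longest run, Camkk2. Each is written 5′ to 3′ on the strand of the transcript, as DNA, and capitals mark the run. The Camk2b stretch lies at chr11:5972279-5972308 on the minus strand, in the coding sequence in exon 20 of 21. The Camkk2 stretch lies at chr5:122733399-122733428 on the minus strand, in the 3′ untranslated region in exon 17 of 17.
Camk2b: cgaagagacccGTGTGTGgcaccgccgcga
Camkk2: ctttttaaGTGTGTGTGTGTGTttttttta
The run in Camk2b is 7 bases long, and 45.6% of 21877 genes have one of at least that length. The run in Camkk2 is 14 bases long, a length that 5.36% of genes reach. In the 8 other kinases the longest run has 6 to 8 bases. Introns, where TDP-43 also binds, were not searched, and a run is a description of the sequence and not a binding site.

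Of the 10 kinases, Camk2b was the one called with genotype, lower in the hippocampus of TDP-43KQ/KQ mice in the model of both regions. In the hippocampus TDP-43wt libraries Camk2b was at 0.468, 0.407 and 0.359 in females 1 to 3 and at 0.396 in the male. In the TDP-43KQ/KQ libraries it was at 0.019, 0.097 and 0.139 in females 1 to 3 and at 0.088 and 0.164 in the males. Every TDP-43KQ/KQ library was thus below every TDP-43wt library, with a wide gap between the highest of the one (0.164) and the lowest of the other (0.359). Group means were 0.407 ± 0.045 (SD, n = 4) and 0.101 ± 0.055 (SD, n = 5). With both regions in 1 limma model (a linear model fitted across 17863 genes, p adjusted after Benjamini and Hochberg), Camk2b was lower by 0.31 on the log2 scale (-0.306 ± 0.043 (SE), 95% confidence interval -0.399 to -0.213, adjusted p = 0.00698). Read as log2, the value fell by 19.1%. It was the only kinase of 10 called in this comparison, in which 0.386% of all genes were called. With the hippocampus fitted alone the estimate was -0.344 ± 0.071 (SE) and the limma adjusted p was 0.263. No gene passed in that fit (0% of 18310), while 2224 genes had an unadjusted p under 0.05 (12.1%). Even Tardbp, the edited gene, did not pass there (0.859 ± 0.134 (SE), limma adjusted p = 0.204). A kinase that did not pass with the hippocampus alone is therefore not shown to be unchanged. Within litter 6, the TDP-43KQ/KQ female was 0.42 below the mean of 2 TDP-43wt females, and within litter 5 the mean of 2 TDP-43KQ/KQ males was 0.27 below the TDP-43wt male. Both differences come from libraries already in these fits. The estimate with the hippocampus alone lies between them, so they are not separate support for it. The call rested on 1 library: without hippocampus TDP-43KQ/KQ female 1, which has the lowest value, the estimate was -0.26 and the adjusted p 0.0827.

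Camk2a, the alpha subunit and the usual partner of Camk2b in the forebrain holoenzyme, did not pass the test. Its hippocampus values were 0.188, 0.397 and 0.293 in the TDP-43wt females and 0.300 in the male. The TDP-43KQ/KQ females were at 0.004, 0.023 and 0.162 and the males at 0.170 and 0.005. The groups did not overlap here either, although TDP-43wt female 1 (0.188) was close to TDP-43KQ/KQ male 1 (0.170). The estimate was -0.251 ± 0.087 (SE, 95% confidence interval -0.454 to -0.048) with the hippocampus alone and -0.222 ± 0.062 in the model of both regions, with limma adjusted p of 0.338 and 0.144. The ubiquitous subunits showed other values: Camk2d had an estimate of 0.148 ± 0.141 and Camk2g of -0.051 ± 0.070 with the hippocampus alone, and in both genes the libraries of the genotypes overlapped. For Camk2d, TDP-43wt female 2 (-0.370) stood apart from the other 3 TDP-43wt libraries, which were at -0.720 to -0.672.

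**Figure D1:**
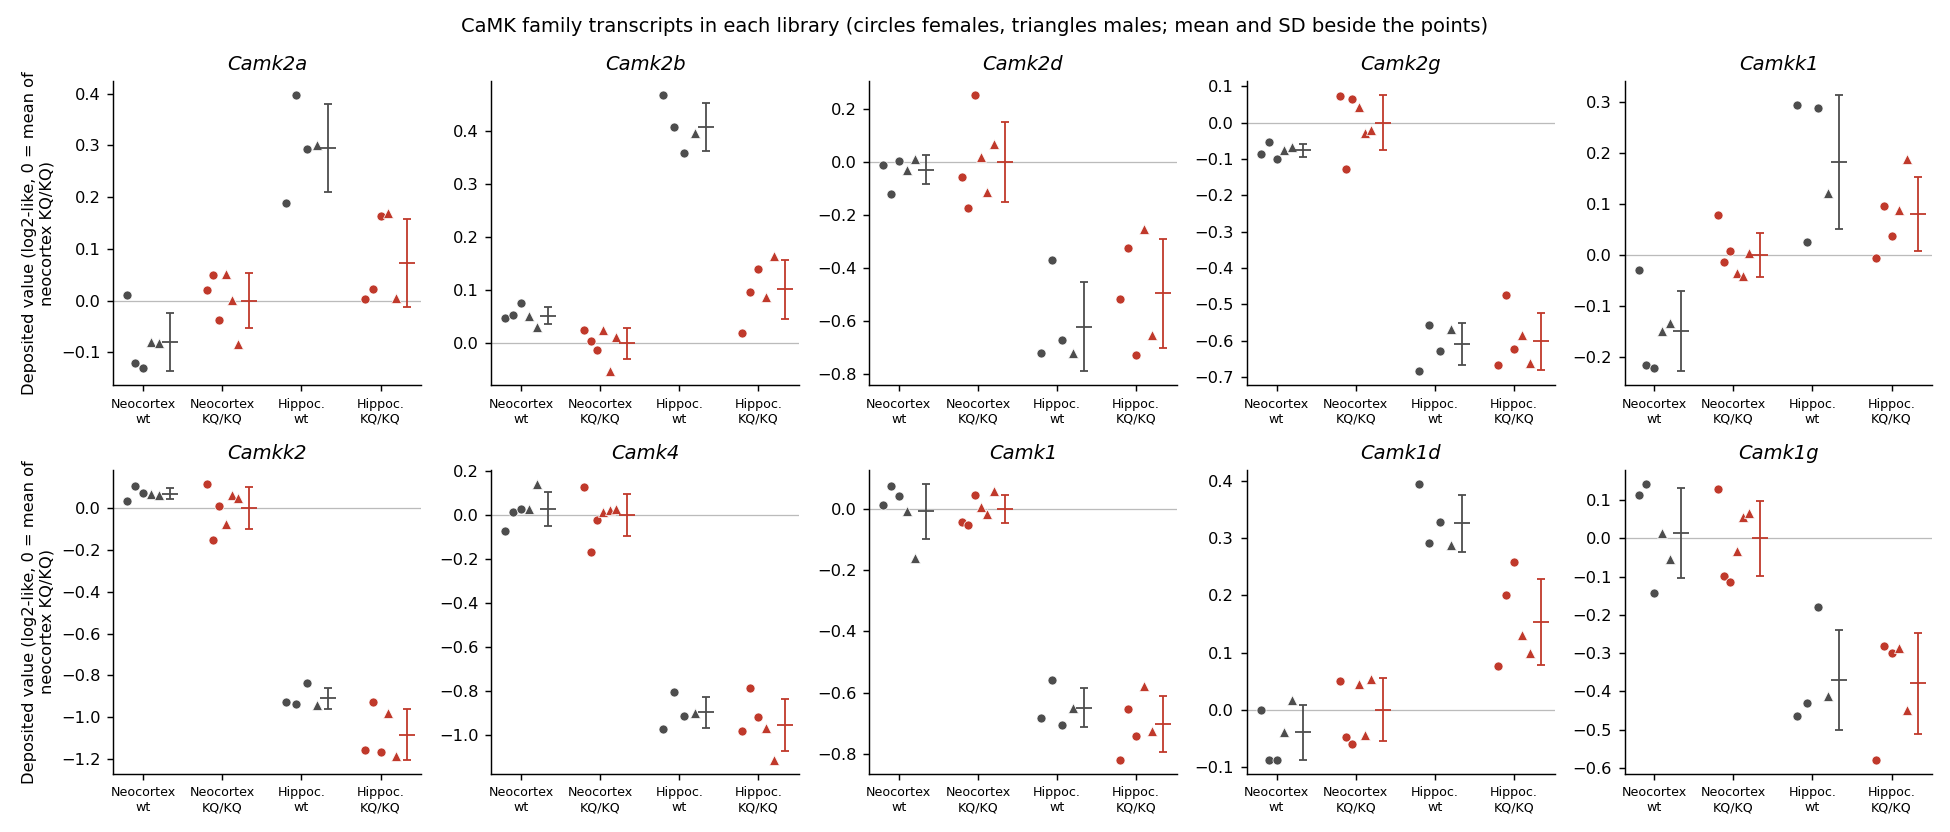
Values of the 10 kinases in each of the 20 libraries, log2-like as deposited, with 0 at the mean of the neocortex TDP-43KQ/KQ libraries. Circles are females and triangles males, grey is TDP-43wt and red TDP-43KQ/KQ, and the bar beside the points gives the mean and SD. In the hippocampus the red points lie below all grey points for Camk2a, Camk2b and Camk1d, and each panel has its own vertical range.

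Among the kinases of this selection downstream of CaMKK, Camk1d had the lowest unadjusted p in the hippocampus. This CaMKI isoform was at 0.396, 0.291 and 0.328 in the TDP-43wt females and at 0.288 in the male. In TDP-43KQ/KQ it was at 0.077, 0.201 and 0.259 in the females and at 0.130 and 0.10 in the males. No library of one genotype reached the range of the other, but the distance between 0.259 and 0.288 was small. The difference was -0.220 ± 0.068 (SE, limma adjusted p = 0.305) with the region alone and -0.172 ± 0.055 (adjusted p = 0.188) in the model of both regions. Camk4, Camk1 and Camk1g had estimates of -0.117, -0.102 and -0.044 with adjusted p of 0.57 or above.

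Camkk2, the activator of CaMKI, CaMKIV and AMPK, was at -0.929, -0.935 and -0.834 in the hippocampus TDP-43wt females and at -0.940 in the male. In TDP-43KQ/KQ the females were at -1.155, -0.926 and -1.166 and the males at -0.977 and -1.185. The TDP-43KQ/KQ values lay below the TDP-43wt range, except that of female 2, which lay inside it. The deviation of female 2 mirrors its deviation in the neocortex, as described above, so this overlap is not a separate hippocampus observation. The estimate was -0.182 ± 0.079 (SE, limma adjusted p = 0.411). Camkk1 had an estimate of -0.075 ± 0.095, and its TDP-43wt libraries were spread from 0.025 to 0.294.

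As a group, 9 of the 10 kinases had an estimate below 0 in the hippocampus and 1, Camk2d, above 0. Their median was -0.109, beside -0.0047 over all 18310 genes tested. Unadjusted p was under 0.05 for 3 of 10 (Camk2a, Camk2b and Camk1d), beside the 12.1% of all genes given above. The same 3 kinases were the ones without overlap between genotypes, and 9.45% of all genes had no overlap in either direction. In the model of both regions 8 of 10 estimates were below 0, with a median of -0.079.

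Markers of several cell types were lower in the hippocampus TDP-43KQ/KQ libraries as well. All 6 excitatory neuron markers (Slc17a7, Neurod2, Neurod6, Tbr1, Sv2b and Nrn1) had an estimate below 0 with the hippocampus alone, with a median of -0.238. Their mean was at 0.090 to 0.206 in TDP-43wt and at -0.172 to 0.043 in TDP-43KQ/KQ libraries, without overlap. The value of -0.172 was that of TDP-43KQ/KQ female 1, which also had the lowest Camk2b. The other TDP-43KQ/KQ libraries were at -0.011 to 0.043. All 7 pan-neuronal markers were below 0 too, with a smaller median of -0.103, as were all 7 inhibitory neuron markers (median -0.225). CA3 pyramidal markers were below 0 in 6 of 7 and dentate granule cell markers in 6 of 7. CA1 pyramidal markers were below 0 in 2 of 6, with overlapping means of 0.827 to 0.954 and 0.883 to 0.996. Of the other cells, 8 of 8 oligodendrocyte markers (median -0.363), 7 of 7 microglia markers and 5 of 7 astrocyte markers had estimates below 0. Endothelial markers were above 0 in 4 of 7 (median 0.086) and striatal projection neuron markers in 6 of 8 (median 0.021). All 7 choroid plexus markers were above 0, their mean running from -0.10 to 2.04 in TDP-43wt and from 0.26 to 3.54 in TDP-43KQ/KQ libraries. None of these markers was at 0 throughout, and none passed the test with the hippocampus alone. In the model of both regions a pair of them passed, both lower in TDP-43KQ/KQ: Sst, the neuropeptide of an interneuron class, at -0.436 ± 0.063 (SE, limma adjusted p = 0.00773), and Sox10, a transcription factor of oligodendrocytes, at -0.528 ± 0.085 (adjusted p = 0.0155). In bulk tissue, fewer cells of a type and less RNA per cell cannot be told apart, and the part of these shifts in the values of the kinases was not tested.

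The kinases were also set against the excitatory neuron markers of the same library, by subtracting the mean of the 6 markers, as a description chosen after the values were seen. For Camk2b the remaining hippocampus difference was -0.13, from 0.257 ± 0.048 (SD, n = 4) in TDP-43wt to 0.127 ± 0.064 (SD, n = 5) in TDP-43KQ/KQ, and all TDP-43KQ/KQ libraries (0.044 to 0.191) were still below the TDP-43wt libraries (0.201 to 0.316), by a narrow margin. For Camk2a it was -0.047, with TDP-43KQ/KQ libraries at -0.00026 to 0.175 and TDP-43wt libraries at 0.036 to 0.203. Camk1d and Camkk2 had differences of 0.0028 and 0.0025 on this scale, far inside the spread between libraries (SD 0.078 and 0.081 for Camk1d). Relative to these markers the genotypes were thus narrowly apart for Camk2b, overlapped for Camk2a and were level for Camk1d and Camkk2. This holds for the excitatory list alone, since no other list was subtracted. From TDP-43wt to TDP-43KQ/KQ the hippocampus means of other lists moved by unlike amounts. They went from -0.202 to -0.277 (pan-neuronal), from -0.265 to -0.448 (inhibitory neuron) and from 0.878 to 0.942 (CA1 pyramidal). No test was run on this scale.

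**Figure D2:**
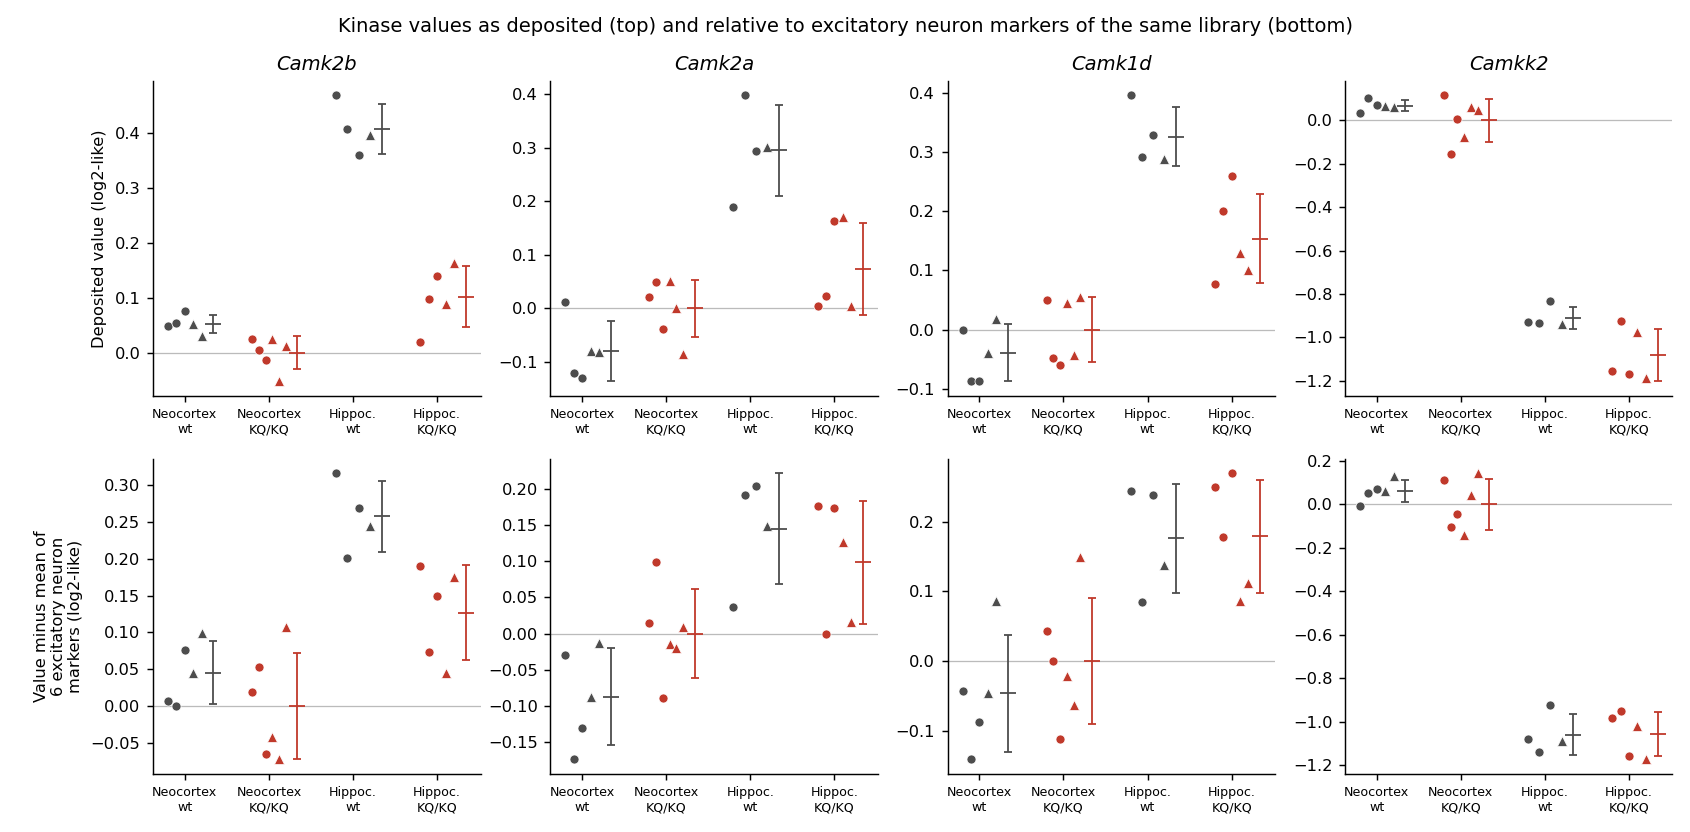
The top row gives the deposited log2-like values of Camk2b, Camk2a, Camk1d and Camkk2 in each library, and the bottom row the same values after the mean of 6 excitatory neuron markers in that library was subtracted. Symbols and bars are as in the plot of the 10 kinases. The genotype difference in the hippocampus is -0.13 for Camk2b and 0.0028 for Camk1d in the bottom row.

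In the neocortex no kinase was called. The limma fit of this region called 7 of 18329 genes (0.0382%), and the model of both regions called 40 genes (0.224%) and none of the 10 kinases. Unadjusted p was under 0.05 for 2 kinases in the fit of the region, Camkk1 and Camk2g, beside 13.7% of all genes. The median of the 10 estimates was 0.043, with 7 above and 3 below 0, and the median of all genes was -0.0037.

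Camkk1 had the lowest p of the kinases in the neocortex. In TDP-43wt it was at -0.029, -0.217 and -0.222 in females and at -0.150 and -0.134 in males, and in TDP-43KQ/KQ at 0.078, -0.015 and 0.007 in females and at -0.035, -0.041 and 0.005 in males. TDP-43wt female 1 lay among the TDP-43KQ/KQ libraries, and the other TDP-43wt libraries were below them. The estimate was 0.167 ± 0.058 (SE, limma adjusted p = 0.294), with differences of 0.20 within litter 6 females and 0.12 within litter 5 males. These differences come from libraries of the same fit and are not separate support for it. Camk2g was at -0.101 to -0.053 in TDP-43wt, with a median of -0.077, and at -0.128 to 0.072 in TDP-43KQ/KQ, with a median of 0.011. Its estimate was 0.118 ± 0.050 (SE, limma adjusted p = 0.351), and the lowest value of all belonged to a TDP-43KQ/KQ library, female 2. The deviation of that library mirrors its deviation in the hippocampus, so this low value is not a separate neocortex observation.

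Camk2b was the single kinase without overlap in the neocortex, where 8.51% of all genes had none. It was at 0.048, 0.053 and 0.076 in TDP-43wt females and at 0.052 and 0.031 in males, against 0.025, 0.004 and -0.014 in TDP-43KQ/KQ females and 0.024, -0.053 and 0.012 in males. The value of TDP-43wt male 1 (0.052) is the mean of the 4 other TDP-43wt libraries and adds nothing to this separation. The distance between the groups was small, and the estimate was -0.040 ± 0.047 (SE, 95% confidence interval -0.147 to 0.066, limma adjusted p = 0.706). Camk2a had an estimate of 0.084 ± 0.055 and the remaining 6 kinases lay between -0.028 and 0.050. Marker lists differed between genotypes in this region as well. Inhibitory neuron markers had a mean of 0.161 to 0.285 in TDP-43wt and of -0.082 to 0.046 in TDP-43KQ/KQ libraries, and astrocyte markers one of 0.104 to 0.188 and of -0.151 to 0.101, in both lists without overlap. With the neocortex alone all 7 inhibitory neuron, 8 striatal projection neuron, 8 oligodendrocyte, 7 astrocyte, 7 microglia and 7 endothelial markers had estimates below 0, and so had 6 of 7 choroid plexus markers. Excitatory neuron markers overlapped, at -0.069 to 0.053 and -0.094 to 0.066. A pair of markers was called for the neocortex in the model of both regions, both lower in TDP-43KQ/KQ: Penk, a striatal projection neuron marker, at -0.669 ± 0.124 (SE, limma adjusted p = 0.0386), and Man1a, of the CA1 pyramidal list, at -0.267 ± 0.046 (adjusted p = 0.0340). The part of these marker lists in the values of Camkk1 and Camk2g was not tested.

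**Figure D3:**
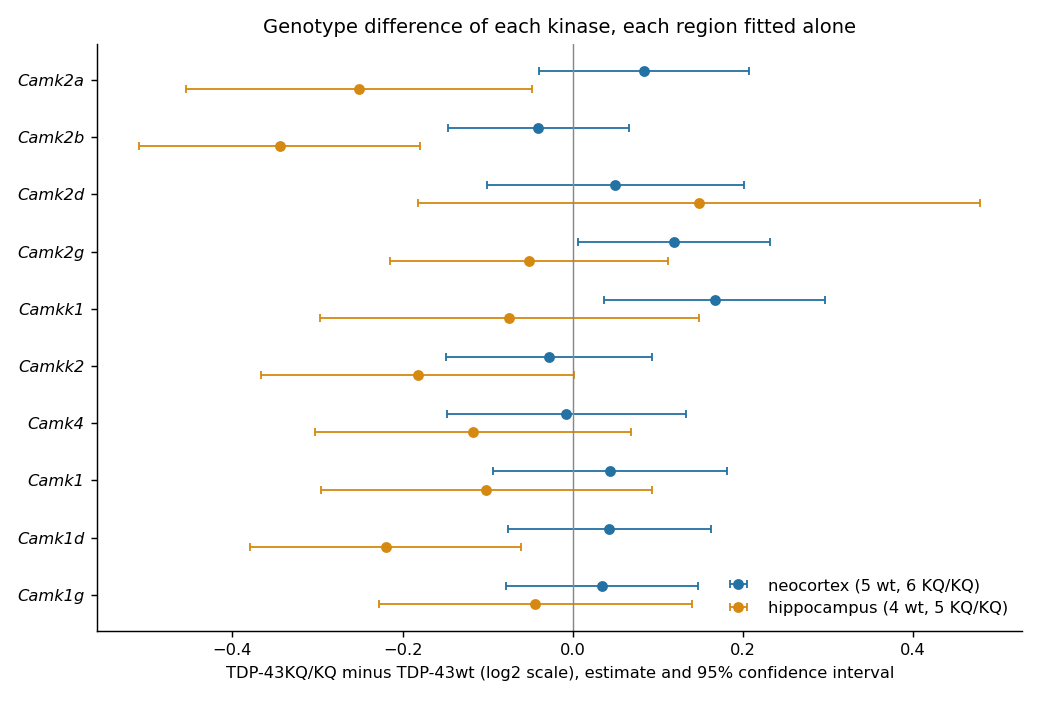
Genotype difference (TDP-43KQ/KQ minus TDP-43wt, log2 scale) of each kinase with the neocortex (blue) and the hippocampus (orange) fitted alone. Points are estimates and bars 95% confidence intervals, which are not adjusted for the number of genes. In the hippocampus the interval of Camk2b runs from -0.509 to -0.179 and in the neocortex from -0.147 to 0.066.

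Whether the genotype effect was larger in one region was asked in the model of both regions. The female libraries of the neocortex and of the hippocampus match in genotype, litter and number and were taken to be from the same mice, which the labels do not state. A random effect for each female mouse was therefore added to this contrast. The deviations of the paired libraries from their group means, after litter and sex were removed, correlated at -1 to 0.722, below 0 in 4 of 6 pairs, and the value of -1 (TDP-43KQ/KQ female 2) is fixed by the removal. With the random effect limma called no gene (0% of 17863), and 1488 genes (8.33%) had an unadjusted p under 0.05, among them 4 of the 10 kinases. For Camk2b the effect in the hippocampus was below that in the neocortex by 0.26 (-0.257 ± 0.052 (SE), adjusted p = 0.362). For Camk2a the difference was -0.305 ± 0.077 (adjusted p = 0.373), for Camkk1 -0.270 ± 0.081 (adjusted p = 0.449) and for Camk1d -0.210 ± 0.066 (adjusted p = 0.449), all by limma. Without the random effect no kinase passed either (Camk2b at -0.25, limma adjusted p = 0.718). A genotype effect on these kinases that differs between the regions is therefore not established at the threshold used. In the model of both regions the neocortex estimates of Camk2a (0.080), Camkk1 (0.150) and Camk1d (0.039) were above 0, and that of Camk2b (-0.052) was below 0. With separate sex and litter terms for each region, Camk2b (-0.34, adjusted p = 0.0248) and Camk1d (-0.30, adjusted p = 0.0254) passed together with 855 genes in all (4.79%). This fit was not stable: it called no gene and no kinase without any one of TDP-43wt female 2 or TDP-43KQ/KQ female 1 in either region. Without TDP-43wt female 1 it called 7 kinases, but 5319 (neocortex library left out) or 4845 (hippocampus library left out) of the 17863 genes were then called.

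All 10 kinases differed between hippocampus and neocortex in TDP-43wt mice, in a comparison in which 33.7% of all genes were called. The neuronal CaMKII subunits were higher in the hippocampus, Camk2a by 0.375 ± 0.057 (SE, limma adjusted p = 1.16e-04) and Camk2b by 0.355 ± 0.039 (adjusted p = 4.08e-06), as were Camk1d (0.372) and Camkk1 (0.339). The other 6 were lower in the hippocampus. Camkk2 was lower by 0.97 (-0.975 ± 0.068, adjusted p = 3.46e-08) and Camk4 by 0.91 (-0.915 ± 0.071, adjusted p = 1.16e-07), a difference of -49.1% and -47.0% if the scale is read as log2. Camk1 (-0.652), Camk2d (-0.582), Camk2g (-0.534) and Camk1g (-0.388) followed.

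In TDP-43KQ/KQ mice 8 kinases passed in the same comparison, where 39.4% of all genes were called. The 6 kinases lower in the hippocampus were called again, with estimates from -0.375 (Camk1g) to -1.081 (Camkk2). The 4 that were higher in TDP-43wt had smaller estimates. Camk2a was at 0.070 ± 0.052 (limma adjusted p = 0.303) and Camkk1 at 0.069 ± 0.054 (adjusted p = 0.336), and neither passed. Camk2b was at 0.098 ± 0.035 (adjusted p = 0.0363) and Camk1d at 0.162 ± 0.044 (adjusted p = 0.00902). The call of Camk2b was lost when libraries were centred on their median (adjusted p = 0.0577) and without any one of 8 libraries, and that of Camk1d without neocortex TDP-43KQ/KQ female 3 (adjusted p = 0.0598). The change of the region difference with genotype is the contrast given above, in which no kinase passed.

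**Figure D4:**
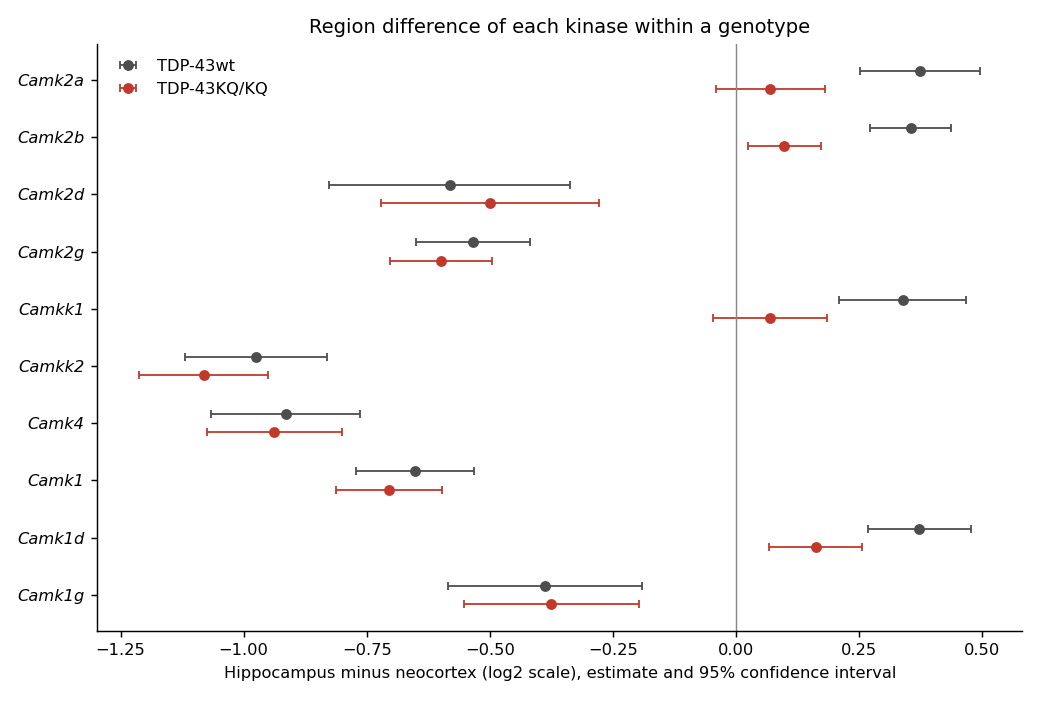
Difference between hippocampus and neocortex (log2 scale) of each kinase in TDP-43wt (grey) and TDP-43KQ/KQ mice (red), as estimates with 95% confidence intervals. Camk2a, Camk2b, Camk1d and Camkk1 have positive estimates in TDP-43wt (0.339 to 0.375) and smaller ones in TDP-43KQ/KQ (0.069 to 0.162), and the other 6 are negative in both genotypes.

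The proteins that feed, restrain or follow the kinases were counted in 8 lists, and no gene of any list was called for genotype, in either region alone or in the model of both regions. Of the calcium channels and receptors, 10 of 12 had an estimate above 0 in the neocortex (median 0.147) and 10 of 12 one below 0 in the hippocampus (median -0.106). Cacna1b, the pore of N-type calcium channels, was at 0.31 in the neocortex (limma adjusted p = 0.282), and Grin2c, an NMDA receptor subunit, at -0.277 ± 0.082 in the hippocampus. Calmodulin genes and calmodulin-binding proteins had estimates below 0 in 6 of 7 genes (neocortex) and in 5 of 7 (hippocampus). The lowest p of this list belonged to Pcp4l1, a small protein related to the calmodulin regulator Pcp4, with -0.432 ± 0.060 in the neocortex (limma adjusted p = 0.0716) and 0.209 ± 0.125 in the hippocampus. Pcp4 was at -0.318 ± 0.091 in the neocortex. Pcp4 is expressed strongly in the striatum, and the mean of 8 striatal markers was at 0.064 to 0.504 in the neocortex TDP-43wt libraries and at -0.225 to 0.164 in the TDP-43KQ/KQ libraries, whose part in these values was not tested.

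Among related kinases and inhibitors, the neocortex had 6 of 10 estimates above 0 and the hippocampus 4 of 10. Camk2n1, an inhibitor protein of CaMKII in neurons, was at -0.276 ± 0.092 in the hippocampus (SE, limma adjusted p = 0.326), and Camk2n2 at 0.131 ± 0.054 in the neocortex. Of 15 CaMKII substrates and postsynaptic partners, 10 were above 0 in the neocortex (median 0.086) and 11 below 0 in the hippocampus (median -0.097). Cacng2 (stargazin), an AMPA receptor partner that CaMKII phosphorylates, was at -0.269 ± 0.086 in the hippocampus, and Actn2, an actin-binding partner of CaMKII, at -0.182 ± 0.060 in the neocortex.

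The 13 nuclear targets of CaMK signalling had medians near 0 (neocortex 0.066, hippocampus 0.023). Hdac5, a class II deacetylase that CaMKs export from the nucleus, was at -0.229 ± 0.089 (SE) in the hippocampus and Crtc2, a CREB coactivator, at 0.157 ± 0.053 in the neocortex. Of 10 CREB-regulated activity genes, 7 were below 0 in the neocortex, against 8 of 10 in the hippocampus. The neurotrophin gene Bdnf had estimates of -0.388 ± 0.148 in neocortex and -0.500 ± 0.102 in hippocampus (limma adjusted p = 0.313 and 0.263), and the clock gene Per1 at 0.384 ± 0.085 in the neocortex (adjusted p = 0.182).

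Phosphatases and their regulators, which oppose the kinases, had 11 of 13 estimates below 0 in each region, with medians of -0.072 and -0.119. Rcan2, a regulator of calcineurin, had estimates of -0.204 ± 0.050 (SE) in neocortex and -0.378 ± 0.076 in hippocampus (limma adjusted p = 0.212 and 0.263). Ppp1r1b (DARPP-32), an inhibitor of protein phosphatase 1 that also marks striatal neurons, was at -0.356 ± 0.080 in the neocortex. In the list of AMPK subunits and other CaMKK targets the medians were 0.0083 and -0.022 over 11 genes. Prkab1, a beta subunit of AMPK, was at -0.147 ± 0.074 in the neocortex and at -0.300 ± 0.068 in the hippocampus (limma adjusted p = 0.404 and 0.265). The other beta subunit, Prkab2, was at 0.297 ± 0.077 and at 0.218 ± 0.131 (adjusted p = 0.219 and 0.529).

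**Figure D5:**
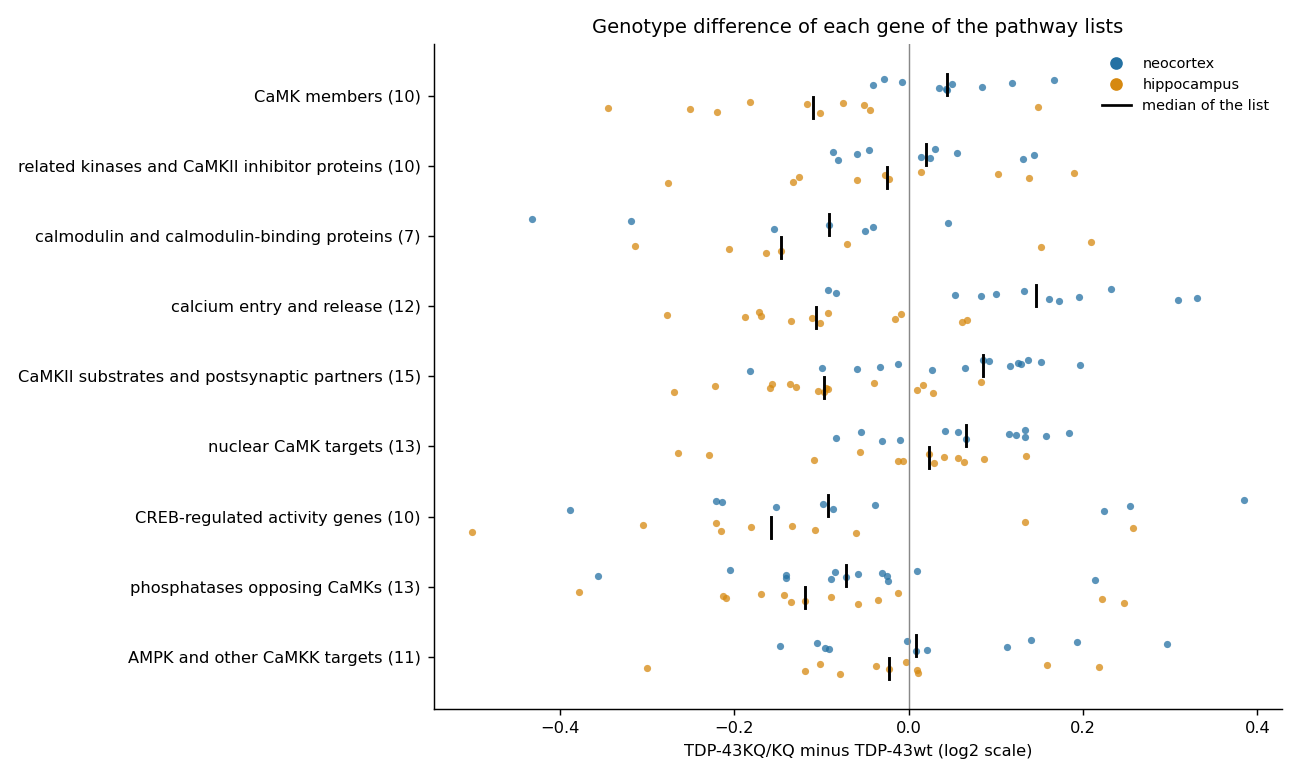
Genotype difference (TDP-43KQ/KQ minus TDP-43wt, log2 scale) of each gene in the 10 kinases and the 8 lists of genes around them, with the neocortex in blue, the hippocampus in orange and the median of a list as a black line. The number in parentheses is the number of genes. The median of calcium entry genes is 0.147 (neocortex) and -0.106 (hippocampus), and none of the genes plotted passed the test with a region alone.

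The genes whose deposited values were nearest to those of Camk2b over the 20 libraries, by root mean square difference, were Abcb1b (0.067), Rgmb (0.073), 3110002H16Rik (0.074), Slc44a1 (0.074) and Mrfap1 (0.075). For Camkk1 they were Adgrb2 (0.038), Mast3 (0.043), Fam214b (0.052), Wdr81 (0.055) and Klhl26 (0.056). This measure favours genes that vary little, and points of the 20 libraries share litters, sexes and probably mice.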

How the data were processed

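Groups were taken from the sample labels. For the deposited table the authors trimmed reads (cutadapt), aligned them to mm10 (STAR 2.5.2b), estimated transcripts (Salmon) and ran DESeq2 1.34.0 in R 4.1.0. The deposited values are on a log2-like scale from a variance-stabilizing transformation, and the authors then took out sex and litter by limma, over both regions jointly. The table runs from -3.36 to 6.61 and holds 24528 genes, of which 4383 are at 0 throughout. Depth and abundance cannot be read from it, so precision comes from the spread between libraries.

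Tests were run with limma 3.58.1 (statmod 1.5.0, R 4.3.3), and tables and plots were made in Python 3.11.15 (numpy 2.4.6, pandas 2.3.3, matplotlib 3.10.9). Genes at 0 throughout or tied in all 3 libraries of 1 region, sex and litter were left out (18329 genes remained in the neocortex, 18310 in the hippocampus, 17863 in both). Each region was fitted by lmFit and eBayes with terms for genotype, sex and litter (residual degrees of freedom 4 and 3). Both regions were also fitted together with sex and litter terms shared (residual degrees of freedom 11), which takes libraries of the regions as independent. Contrasts between regions had a random effect for the mouse among females, whose pairing across regions the labels do not state (duplicateCorrelation, estimated correlation 0.274). Benjamini-Hochberg adjustment covered all genes tested, and an adjusted p under 0.05 is called. Although already removed, sex and litter stayed in the model, because degrees of freedom spent on them are not free. The fits of each region alone and of both regions with shared terms were also run on simulated data with independent errors. That run did not cover the fits with a random effect for the mouse or with terms for each region. The members and lists were chosen with earlier results of these data known. A gene of the marker lists is not reported here, and list values were computed without it. Named genes were the 10 kinases, Tardbp, in each pathway list every gene called for genotype and otherwise the 2 of lowest unadjusted p in a region alone, and the 5 nearest genes of the kinase of lowest p in each region. Cell type markers called for genotype were named after their values were seen. Alternatives varied the terms, the filter, the variance estimate, the centring and the libraries.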

Additional observations from a re-analysis of the deposited data

Results flagged for a closer look

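In 2 of 40 groups of libraries (10 kinases in 4 groups) 1 library stood far from the others of its group by Dixon's criterion, which chance meets in about 1 in 20 groups. Camk2d was at -0.370 in hippocampus TDP-43wt female 2, while the other 3 TDP-43wt libraries lay between -0.720 and -0.672. Camkk2 was at -0.834 in hippocampus TDP-43wt female 3, the only hippocampus library of litter 4, and the other 3 lay between -0.940 and -0.929.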

How the results depend on the processing

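Of 400 values for single genes under alternatives that kept all libraries, 370 kept direction and side of the threshold. The values depended most on how sex and litter, already removed from the table, were handled. With genotype or group as the only term, sex without litter, or litter as a random effect, the neocortex alone had 2745, 1939 or 2423 calls (7 as reported) and 1 kinase (Camkk1) each time. The hippocampus alone had 373, 147 or 150 (0 as reported) and 1 kinase (Camk2b). In the model of both regions the neocortex had 2381, 1812 or 2396 calls, with 1 kinase (Camkk1) except with sex without litter, and the hippocampus 2077, 1584 or 2114, with 3, 3 or 4 kinases (Camk2a, Camk2b and Camk1d, and Camkk2 as the fourth). These fits count as free the degrees of freedom spent on the removal. With the replicate number as a replicate block in place of litter, calls were 892 and 12 in the regions alone and 1183 and 1126 in the model of both, with 3 kinases in the hippocampus there (Camk2a, Camk2b and Camk1d). The numbers do not pair the genotypes: deviations of same-numbered libraries correlated at -0.605 to 0.116 and litters often differed. The neocortex alone had 0 calls without the filter (2573 genes had p under 0.05 before adjustment) and 12 with robust estimation, and the model of both had 66 there under a stricter filter. Terms for each region gave 855 calls and 2 kinases for the difference between regions. Signs turned for values near 0. Camk1g in the neocortex was at -0.015, -0.015, -0.044 and -0.00059 with genotype alone, sex alone, litter at random and the block. Camk2g in the hippocampus was at 0.0071, 0.0072 and 0.018 under the first 3, and Camk1g there at 0.015 with litter at random, at 0.0023 in the model of both with the mouse as a random effect, and at -0.099 for the difference with terms for each region.

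Leaving out each library in turn, the neocortex alone had 0 to 9 calls and the hippocampus 0 to 128, the model of both 7 to 123 and 8 to 137 with 0 to 1 kinase in the hippocampus, and the difference with terms for each region 0 to 5319 with 0 to 7 kinases. Estimates that crossed 0 in the neocortex alone were Camk2d (-0.014 to 0.092), Camk4 (-0.098 to 0.090), Camkk2 (-0.069 to 0.019), Camk1 (-0.065 to 0.116) and Camk1g (-0.020 to 0.057), and in the hippocampus alone Camk1g (-0.132 to 0.043) and Camkk1 (-0.166 to 0.016). In the model of both they were Camk1g (-0.092 to 0.031), Camk2d (-0.074 to 0.062), Camk4 (-0.079 to 0.043) and Camk1 (-0.087 to 0.033) in the neocortex, and Camk1g (-0.039 to 0.101), Camk2g (-0.029 to 0.043) and Camk1 (-0.088 to 0.0083) in the hippocampus. For the difference they were Camk4 (-0.115 to 0.025), Camk1g (-0.050 to 0.129) and Camk2d (-0.029 to 0.225), and with terms for each region Camk2d (-0.125 to 0.218) and Camk1g (-0.145 to 0.0089). The adjusted p of Camk2b in the hippocampus ran from 0.00698 to 0.0827. The cause of these changes was not tested.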
